A study of Brassica rapa subsp. rapa with 9 samples.

Results

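Translation factors are represented here by 3 gene names on a turnip cDNA array: TIF3H1 and EIF3K, which are subunits of the initiation factor complex eIF3, and AT1G07920, annotated as a calmodulin-binding translation elongation factor. Members were all probes with a usable spot whose annotation ends in one of these names in brackets. There were 8 such probes among 2507: TIF3H1 had 2, EIF3K had 1 and AT1G07920 had 5. Names are those of the array's annotation, which uses Arabidopsis gene names for these turnip clones, so probes of 1 name may read the same turnip gene or near-identical copies of it, and they are not replicates of each other. Near-identical copies of this elongation factor are known in plants.

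The RNA came from the peeled surface of swollen hypocotyls, the storage organ of the red turnip 'Tsuda' (Brassica rapa subsp. rapa). Organs were exposed for 24 hours to UV-B, UV-A or blue light, or were kept in darkness, and the labels name no genetic change. Each of the 9 arrays held 1 exposed sample in Cy3 and 1 dark sample in Cy5, with 3 arrays per light, and each biological replicate came from more than 5 plants. Groups follow the sample titles and source names, because the description field gives blue light throughout. A value of log2(light/dark) above 0 means more RNA in the exposed sample than in the dark sample of the same array. Because no dyes were swapped, any dye bias of a probe enters these ratios, but not the differences between lights.

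Signal differed between arrays. Exposed samples gave a median signal of 3.57 and 4.35 times background on UV-B replicates 1 and 2, and of 8.82 to 65.8 times on the other 7 arrays. Across probes, pairs of replicates had correlated ratios, at 0.573 to 0.772 in UV-B, at 0.415 to 0.684 in UV-A and at 0.379 to 0.388 in blue light. Spots without a clone were above background (foreground at least 1.5 times background) in the light channel at 2.22% to 7.41% of the 135 in replicates 1 and 2, and at 79.3% to 99.3% in replicate 3 of every light. Of 13 probes of anthocyanin enzymes (CHS, F3H, DFR and LDOX), 10 were above background in the light channel on all 9 arrays. So were 26 of 32 probes of PIP1B, PIP3 and PRXR1, taken here as genes of root and storage organ. Both probes of LHCB2.1, taken as a gene of green tissue, were too. No tissue is named from these probes. The part of these array differences in the results was not tested. The calls of the 8 probes against darkness and between pairs of lights that ended when 1 array was left out are given with their adjusted p. For the joint test of the 3 lights only the number of calls is given.

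Translation begins when initiation factors bring the small ribosomal subunit, the initiator tRNA and an mRNA together. The complex eIF3 is a scaffold for these steps, and its h subunit, encoded by TIF3H1, is known in Arabidopsis for supporting translation of mRNAs that carry upstream open reading frames. EIF3K encodes the k subunit, one of the smallest of the complex. During elongation, factors of the eEF1A family, to which AT1G07920 belongs in Arabidopsis, bind GTP and deliver aminoacyl-tRNA to the ribosome. Their mRNAs are abundant in growing plant tissue.

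In UV-B, 3 of the 8 probes rose against darkness and none fell, at an adjusted p under 0.05 in limma, where 10.8% of all 2507 probes rose and 13.9% fell. They were TIF3H1 probe 1319 and the AT1G07920 probes 1226 and 1473. In UV-A, TIF3H1 probe 1319 alone rose (1 of 8, against 1.12% of all probes), and none fell (2.07% of all). In blue light none of the 8 passed, where 3.47% of all probes did, 1.12% higher and 2.35% lower. At an unadjusted p under 0.05, 3 AT1G07920 probes were lower in blue light than in darkness (585, 607 and 1473) and none of the 8 probes was higher. Of all probes, 25.2% were past that threshold in either direction. The median over the 8 probes was 0.69 in UV-B, -0.04 in UV-A and -0.29 in blue light, while over all probes it was 0.01, -0.0011 and 0.02 in these lights. With bulk RNA, a lower share of cells that hold an mRNA and less of it per cell cannot be told apart.

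**Figure D1:**
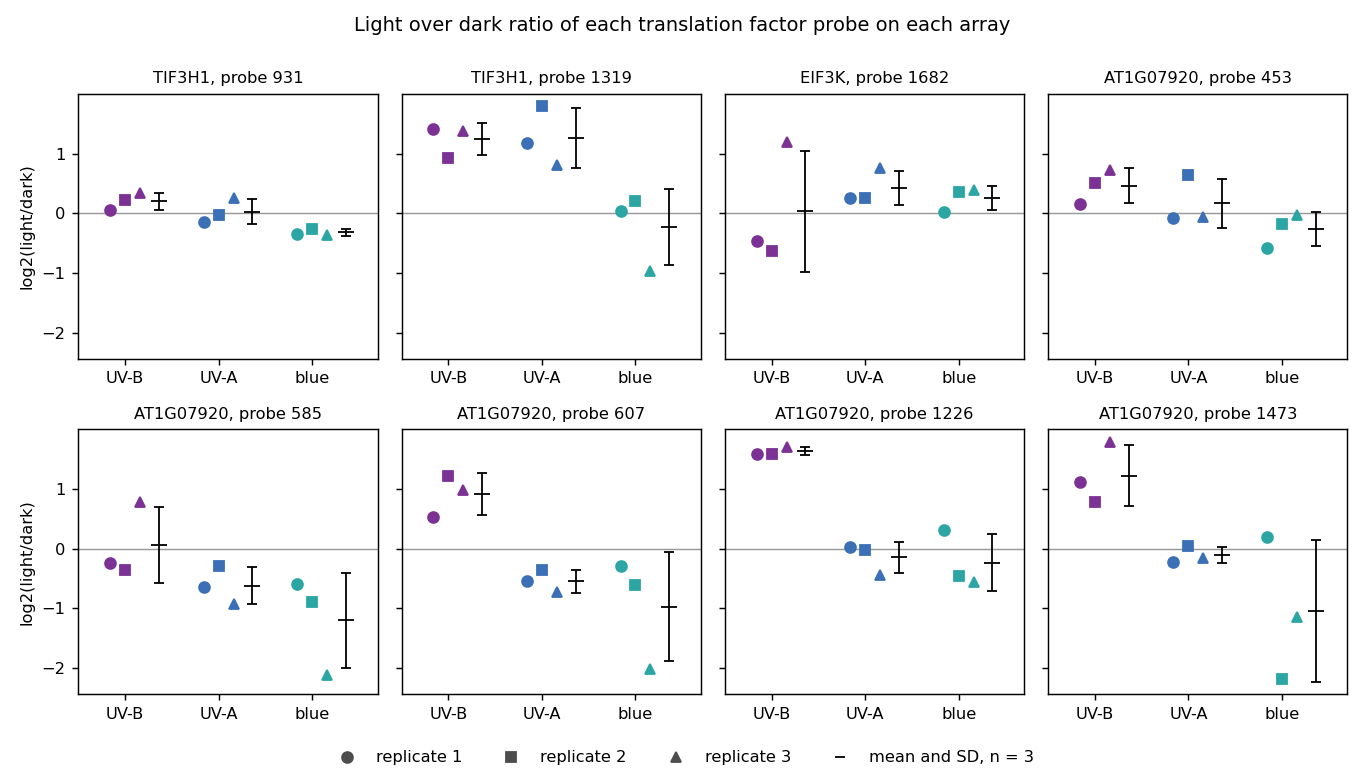
Values of log2(light/dark) for the 8 translation factor probes on each array, by light, with replicates 1, 2 and 3 as circles, squares and triangles. The black dash and bar give the mean and SD of 3 arrays. AT1G07920 probe 1226 lay between 1.59 and 1.71 on all 3 UV-B arrays, and TIF3H1 probe 1319 was above 0 on all 6 UV arrays.

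TIF3H1, the h subunit of eIF3, rose in both UV treatments on probe 1319 only. Its other probe, 931, did not pass in UV-B or UV-A (limma adjusted p = 0.584 and 0.972). The UV-A call of probe 1319 was kept in 10 of 22 alternatives. On probe 1319 the exposed UV-B samples had raw intensities of 1966.5, 2615 and 5220.5 in replicates 1, 2 and 3, against 820.5, 816.5 and 1742.5 in the dark samples of the same arrays. After normalization log2(light/dark) was 1.42, 0.93 and 1.37 in UV-B, all above 0. In UV-A the exposed samples had 2038.5, 33854 and 19111, against 1444.5, 4982 and 13520.5 in the dark samples, which gave 1.18, 1.80 and 0.80. In blue light the exposed samples had 2367, 8136.5 and 3747.5, against 3335.5, 5196 and 6498.5 in the dark samples, and the ratios of 0.04, 0.21 and -0.96 lay on both sides of 0.

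The rise of TIF3H1 probe 1319 was 2.36-fold in UV-B (log2 1.24 ± 0.304 SE, n = 3, adjusted p = 0.012) and 2.39-fold in UV-A (log2 1.26 ± 0.304, n = 3, adjusted p = 0.0476). In blue light the mean was -0.23 ± 0.304 and did not pass (adjusted p = 0.647). The authors' deposited table, turned to light over dark, gave 0.93, 1.13 and 1.33 in UV-B, 0.88, 1.75 and 0.68 in UV-A and -0.18, 0.35 and -0.06 in blue light. Duplicate spots of this probe differed by 1.90 (log2) on UV-B replicate 2, where they had -0.02 and 1.88, and gave 2.24 and 0.50 on UV-B replicate 3. The median gap between duplicate spots over the 9 arrays was 0.11.

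The UV-B call of this probe was lost without UV-B replicate 1 (adjusted p = 0.0795) or 3 (0.0766) and with the first spot of each probe alone (0.0735). Its UV-A call was lost when any 1 of 7 arrays was left out. The adjusted p was then 0.0767 and 0.0558 for UV-B replicates 1 and 2, 0.193, 0.297 and 0.131 for UV-A replicates 1, 2 and 3, and 0.0663 and 0.0557 for blue replicates 1 and 2. This call was also lost with plain background subtraction (0.0668), median centring (0.052), the UV-A arrays alone (0.0516) and each single spot (0.207 and 0.0775). Few probes kept a UV-A call without a UV-A array: 0.917%, 0% and 0.0798% of all without replicates 1, 2 and 3. The share was 1.95% to 3.11% without each of the other arrays named, and 1.24% to 3.83% in the other settings.

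The other TIF3H1 probe, 931, rested on 1 usable spot and was among the dimmest on the array, 2496th of 2507 by mean signal. Both of its channels were above background on 4 of 9 arrays: UV-B replicate 3, UV-A replicate 3 and blue replicates 1 and 3. On replicate 3 of UV-B, UV-A and blue light, 99.3%, 79.3% and 99.3% of spots without a clone passed the same cut in the light channel. Passing it there thus does not tell this probe from an empty spot. Probe 931 had log2(light/dark) of 0.06, 0.21 and 0.33 in UV-B, -0.15, -0.03 and 0.25 in UV-A, and -0.34, -0.26 and -0.36 in blue light. The UV-B values did not overlap those in blue light, but neither channel was above background on UV-B replicates 1 and 2 or on blue replicate 2, so these ratios give no order or size. No mean passed, with 0.20 ± 0.234 in UV-B (adjusted p = 0.584), 0.02 ± 0.234 in UV-A (0.972) and -0.32 ± 0.234 in blue light (0.411).

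EIF3K, the k subunit, gave one of the brightest probes on the array, the 9th by mean signal. On probe 1682 the exposed UV-B samples had raw intensities of 22518, 11299 and 61788.5, against 17711, 16981.5 and 25596.5 in the dark samples. The ratios in UV-B were -0.47, -0.63 and 1.20, so that replicate 3 went the other way from replicates 1 and 2. In UV-A they were 0.25, 0.25 and 0.76, and in blue light 0.02, 0.35 and 0.40, all above 0. Both exposed spots were saturated on UV-A replicate 3, and 1 of 2 was on UV-B replicate 3 and on blue replicate 3, so these ratios are not exact.

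No mean of EIF3K passed. It was 0.03 ± 0.341 (SE) in UV-B with a 95% interval of -0.71 to 0.78 (adjusted p = 0.965), 0.42 ± 0.341 in UV-A with an interval of -0.32 to 1.17 (0.537), and 0.26 ± 0.341 in blue light with an interval of -0.49 to 1.00 (0.657). Without UV-B replicate 3 the UV-B mean was -0.55 (adjusted p = 0.276). Across the 9 arrays its ratios correlated with those of TIF3H1 probe 1319 at -0.043 and with those of the 5 AT1G07920 probes at -0.306 to 0.124. All these values come from the same 9 arrays, and each pair shares their signal and dye orientation.

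AT1G07920, the elongation factor, had its largest rise on probe 1226 in UV-B. The exposed samples had raw intensities of 20964, 33363 and 12720, against 4747, 8113.5 and 4133.5 in the dark samples, and the ratios were 1.59, 1.59 and 1.71. The mean rise was 3.09-fold (log2 1.63 ± 0.261 SE, per-array SD 0.068, n = 3, adjusted p = 0.00122), and no alternative run here ended this call. Duplicate spots gave 1.55 and 1.63 on UV-B replicate 1, 2.08 and 1.10 on replicate 2, and 1.43 and 1.99 on replicate 3. The SD is of the spot averages and does not hold this spread. In UV-A the exposed samples had 6619, 13979 and 19057.5, against 10207.5, 6708.5 and 31426 in the dark samples, with ratios of 0.04, -0.02 and -0.44. In blue light they had 4461.5, 10220 and 3909, against 5150, 13081.5 and 4961.5 in the dark samples, with ratios of 0.32, -0.46 and -0.56. Neither the UV-A mean (-0.14 ± 0.261, adjusted p = 0.816) nor the blue light mean (-0.23 ± 0.261, adjusted p = 0.596) passed.

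Probe 1473 of AT1G07920 rose 2.34-fold in UV-B (log2 1.22 ± 0.383 SE, n = 3, adjusted p = 0.0361). Its exposed samples had 5061, 3213.5 and 10730, against 1082, 1100 and 3819.5 in the dark samples, with ratios of 1.11, 0.78 and 1.78. Duplicate spots of this probe gave 0.16 and 2.06 on UV-B replicate 1 and 1.47 and 0.09 on UV-B replicate 2, while they were alike on UV-B replicate 3 (1.80 and 1.76). Leaving out UV-B replicate 1, 2 or 3 ended the call (adjusted p = 0.116, 0.0518 and 0.227), as did leaving out UV-A replicate 1 or 3 (0.0545 and 0.0509) and using either single spot (0.0833 and 0.0614). In blue light the ratios of this probe were spread over 0.19, -2.18 and -1.14 (mean -1.04 ± 0.383, adjusted p = 0.134), and without blue replicate 1 the mean was -1.66 and passed (0.0492). In UV-A they lay near 0, at -0.22, 0.05 and -0.15 (adjusted p = 0.922).

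The other 3 probes of AT1G07920 did not pass in any light. On probe 607 the exposed UV-B samples had raw intensities of 3248, 27318.5 and 13548, against 1953.5, 8859.5 and 8099 in the dark samples. Its ratios were 0.53, 1.23 and 0.98 in UV-B (mean 0.91 ± 0.328, adjusted p = 0.0631), -0.55, -0.35 and -0.73 in UV-A (mean -0.54, 0.371) and -0.30, -0.61 and -2.01 in blue light (mean -0.97, 0.11). Its sign thus differed between UV-B and the other lights on every array. With the replicate number as a block it passed in UV-B (adjusted p = 0.0346) and in blue light (0.0478), and its UV-B mean also passed in the authors' values (0.0318). That mean passed too with plain background subtraction (0.0495), no background correction (0.0483), a strict filter (0.0466) and without blue replicate 3 (0.0141).

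Probe 585 was below 0 on every UV-A and blue light array, with -0.64, -0.29 and -0.92 in UV-A (mean -0.62 ± 0.34, adjusted p = 0.334) and -0.60, -0.90 and -2.11 in blue light (mean -1.20 ± 0.34, adjusted p = 0.0702). With the block the blue light mean passed (adjusted p = 0.0393), as it did with print-tip loess (0.045). In UV-B this probe had -0.24, -0.36 and 0.79, with a mean of 0.06. Probe 453 had 0.15, 0.52 and 0.73 in UV-B (mean 0.46 ± 0.264, adjusted p = 0.237), -0.08, 0.64 and -0.05 in UV-A (mean 0.17, 0.782) and -0.58, -0.18 and -0.03 in blue light (mean -0.26, 0.551).

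Probes that carry the elongation factor's name thus gave unlike ratios on the same array. On UV-B replicates 1 and 2 the lowest of the 5 was probe 585 (-0.24 and -0.36) and the highest was probe 1226 (1.59 on each), a range of 1.83 and 1.95. On UV-B replicate 3 all 5 were above 0, from 0.73 on probe 453 to 1.78 on probe 1473. In UV-A the range within an array was 0.68 to 0.99, and in blue light it was 0.92 to 2.08. Across the 9 arrays pairs of these probes correlated at 0.54 to 0.909, with probes 607 and 1226 most alike and each pair with probe 453 between 0.54 and 0.568.

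**Figure D2:**
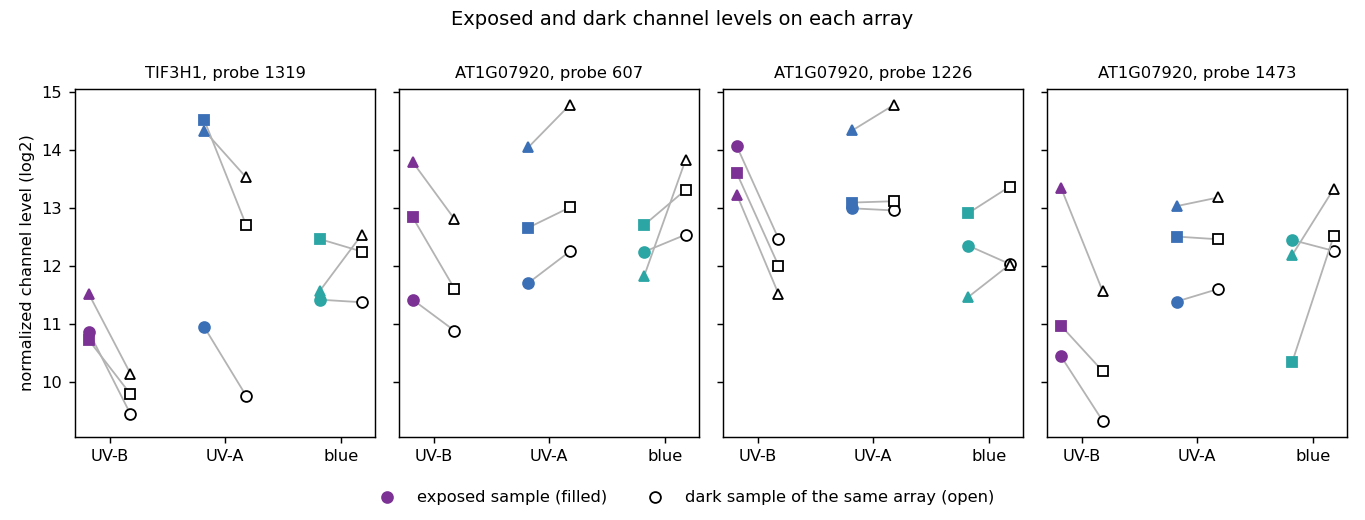
Normalized log2 levels of the exposed sample (filled) and of the dark sample of the same array (open), joined by a line, for TIF3H1 probe 1319 and AT1G07920 probes 607, 1226 and 1473, with replicates 1, 2 and 3 as circles, squares and triangles. In UV-B each line falls toward the dark sample, and for the 3 AT1G07920 probes the UV-A lines are flat or rise toward it.

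Differences between lights were tested as differences of these ratios, which dye bias of a probe does not enter. UV-B was higher than blue light on 4 of the 8 probes and lower on none (8.06% of all probes were higher and 10.3% lower). Probe 1473 of AT1G07920 differed by 2.27 ± 0.542 (log2 SE, adjusted p = 0.0169), probe 607 by 1.88 ± 0.463 (0.0188) and probe 1226 by 1.86 ± 0.369 (0.0072). TIF3H1 probe 1319 differed by 1.47 ± 0.43 (adjusted p = 0.0354). For AT1G07920 probe 585 the difference was 1.26 with a 95% interval of 0.21 to 2.31 (adjusted p = 0.0874), and for probe 453 it was 0.73 with an interval of -0.09 to 1.54 (0.189). Both passed in the authors' values (adjusted p = 0.0189 and 0.0361), where 23.2% of all probes were called.

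The ratios of UV-B lay above those of blue light with no overlap on 7 of the 8 probes, all but EIF3K, as did 18.7% of all probes. The 7 include TIF3H1 probe 931, which was not above background on 3 of those 6 arrays. Within same-numbered arrays UV-B exceeded blue light on AT1G07920 probe 1226 by 1.27, 2.05 and 2.27 in replicates 1, 2 and 3, on probe 607 by 0.83, 1.83 and 2.99, and on probe 1473 by 0.92, 2.96 and 2.92. On TIF3H1 probe 1319 these differences were 1.37, 0.72 and 2.33. EIF3K had -0.50, -0.98 and 0.80, and a mean difference of -0.23 with an interval of -1.28 to 0.83 (adjusted p = 0.763). Without UV-B replicate 3 only probe 1226 kept its call, with adjusted p = 0.0626, 0.057 and 0.0927 for AT1G07920 probes 1473 and 607 and TIF3H1 probe 1319. The TIF3H1 call was also lost without blue replicate 3 (0.0966), UV-B replicate 1 (0.109) or UV-A replicate 1 (0.0594), with median centring (0.0671), with the UV-B and blue light arrays alone (0.0664) and with the first spot of each probe (0.182).

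Between UV-B and UV-A, AT1G07920 probe 1226 was 3.42-fold higher in UV-B (log2 1.77 ± 0.369 SE, adjusted p = 0.0128), 1 of 8 probes to pass where 6.62% of all did, 2.03% higher and 4.59% lower, and the same-numbered arrays gave 1.55, 1.61 and 2.15. Leaving out UV-A replicate 3 (0.0829) or UV-B replicate 1 (0.0519) ended this call. Probes 607 and 1473 of AT1G07920 had differences of 1.46 (interval 0.44 to 2.47, adjusted p = 0.0827) and 1.33 (interval 0.15 to 2.51, adjusted p = 0.161), with no overlap of the lights, as on 3 of the 8 probes with probe 1226 and 18.4% of all. With the block probe 607 passed too (0.0409). TIF3H1 probe 1319 had a difference of -0.02 between UV-B and UV-A, with an interval of -0.96 to 0.92 (adjusted p = 0.982).

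UV-A and blue light gave no called difference on any of the 8 probes or on any of the 2507 (0% of all). Among the 8, the largest was that of TIF3H1 probe 1319, which was 1.49 higher in UV-A (interval 0.55 to 2.43, unadjusted p = 0.00474, adjusted p = 0.952), with 1.13, 1.58 and 1.76 in the same-numbered arrays. Its UV-A ratios lay above those of blue light with no overlap, as did those of 2 of the 8 probes and 5.03% of all. The other of the 2 was TIF3H1 probe 931, with neither channel above background on UV-A replicates 1 and 2 and blue replicate 2. Probe 1319 was the 1 of 8 with an unadjusted p under 0.05, against 3.19% of all probes. In the joint test of the 3 lights (limma's moderated F), 3 of the 8 probes passed where 10.3% of all did: AT1G07920 probes 1226 (adjusted p = 0.0108), 607 (0.0456) and 1473 (0.0472). TIF3H1 probe 1319 had an adjusted p of 0.0547 in it. Without 1 array, 0 to 3 of the 8 passed the joint test (3.87% to 10.7% of all). The count was 0 when UV-B replicate 1 or 3 was left out (3.87% and 4.11% of all).

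**Figure D3:**
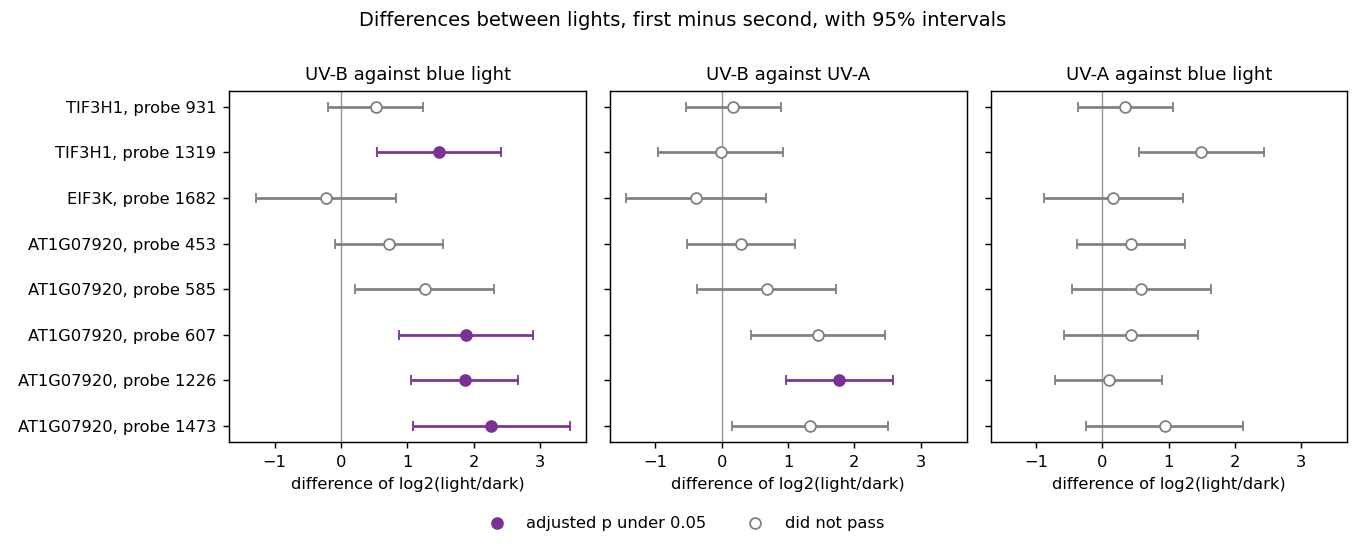
Differences of mean log2(light/dark) between lights, the light named first minus the other, with 95% intervals from limma, for the 8 probes. Filled symbols passed at an adjusted p under 0.05: 4 probes for UV-B against blue light, 1 for UV-B against UV-A and 0 for UV-A against blue light.

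Other probes named as translation factors, 18 probes of 13 names, moved both ways in UV-B. Against darkness 3 rose and 2 fell in UV-B (24.7% of all probes were called there), and none passed in UV-A or blue light, where at least 3.19% of all did. The 3 that rose are annotated as elongation factors. AT2G45030, a GTP-binding elongation factor, had 1.42, 1.76 and 1.16 in UV-B (2.73-fold, log2 1.45 ± 0.274 SE, adjusted p = 0.00289). AT1G09640 had 1.02, 1.62 and 0.83 (log2 1.16 ± 0.289, adjusted p = 0.0131), and AT1G30230 had 0.88, 1.02 and 1.24 (log2 1.05 ± 0.276, adjusted p = 0.0175). The call of AT1G30230 was lost without any 1 UV-B replicate (at most 0.106), and that of AT1G09640 without UV-B replicates 1 and 2 (0.0557 and 0.08) and with the first spot of each probe (0.0575).

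Probe 1866 of EIF3C, which encodes another eIF3 subunit, fell in UV-B, with -1.10, -0.45 and -1.08 (by 0.88 on the log2 scale, SE 0.265, adjusted p = 0.0313). Its call was lost without UV-B replicates 1 and 3 (0.166 and 0.157), without UV-A replicate 1 (0.0553), with the UV-B arrays alone (0.0766) and with the second spot of each probe (0.21). The other EIF3C probes, 2489 and 2009, had UV-B means of -0.79 (adjusted p = 0.181) and 0.07 (0.882). The other probe that fell is named after a fungal mitochondrial elongation factor G, ATEG_05391 (by 0.79 on the log2 scale, SE 0.239, adjusted p = 0.0313), and lost its call when any 1 UV-B array was left out (0.0806 to 0.162), when UV-A replicate 1 or 3 was (0.0585 and 0.0516), with no background correction (0.0678), print-tip loess (0.0603), spot weights ignored (0.151), the authors' values (0.0607), the UV-B arrays alone (0.0866) and each single spot (0.07 and 0.149). The 2 probes of LOS1, an elongation factor known from cold responses in Arabidopsis, had 0.33 and 0.50 in UV-B, neither of which passed (0.562 and 0.222). AT5G19510, the brightest of the 18, had -0.07 in UV-B (adjusted p = 0.914).

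Between lights, UV-B was higher than blue light on 2 of the 18 probes and lower on 3 (8.06% of all were higher and 10.3% lower). Higher were AT1G30230 (by 1.53, adjusted p = 0.0208) and AT2G45030 (by 1.27, adjusted p = 0.0419). Lower were ATEG_05391 (-1.69, adjusted p = 0.00758), EIF3C probe 1866 (-1.34, adjusted p = 0.0307) and the initiation factor AT5G36230 (-1.81, adjusted p = 0.0374). The call of ATEG_05391 held whichever array was left out and was lost with spot weights ignored (0.0525). That of AT2G45030 was lost without any 1 of 8 arrays, all but blue replicate 2 (0.0554 to 0.108), and under 8 other alternatives (0.0526 to 0.2). AT1G30230 lost its call without UV-B replicate 1 or 3 or blue replicate 3 (0.0543 to 0.0642). EIF3C lost it without UV-B replicate 1 or 3, UV-A replicate 1 or blue replicate 2 or 3 (0.056 to 0.106), with the compared arrays alone (0.0783) and with the second spot (0.114). AT5G36230 lost it without any UV-B replicate, UV-A replicate 1 or blue replicate 1 or 3 (0.0546 to 0.107), in the authors' values (0.0591) and with the first spot (0.0627). UV-B was higher than UV-A on AT2G45030 (by 1.48, adjusted p = 0.0445), a call lost without any 1 UV-B or UV-A replicate (0.0677 to 0.155) and under 7 other alternatives (0.051 to 0.0959).

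**Figure D4:**
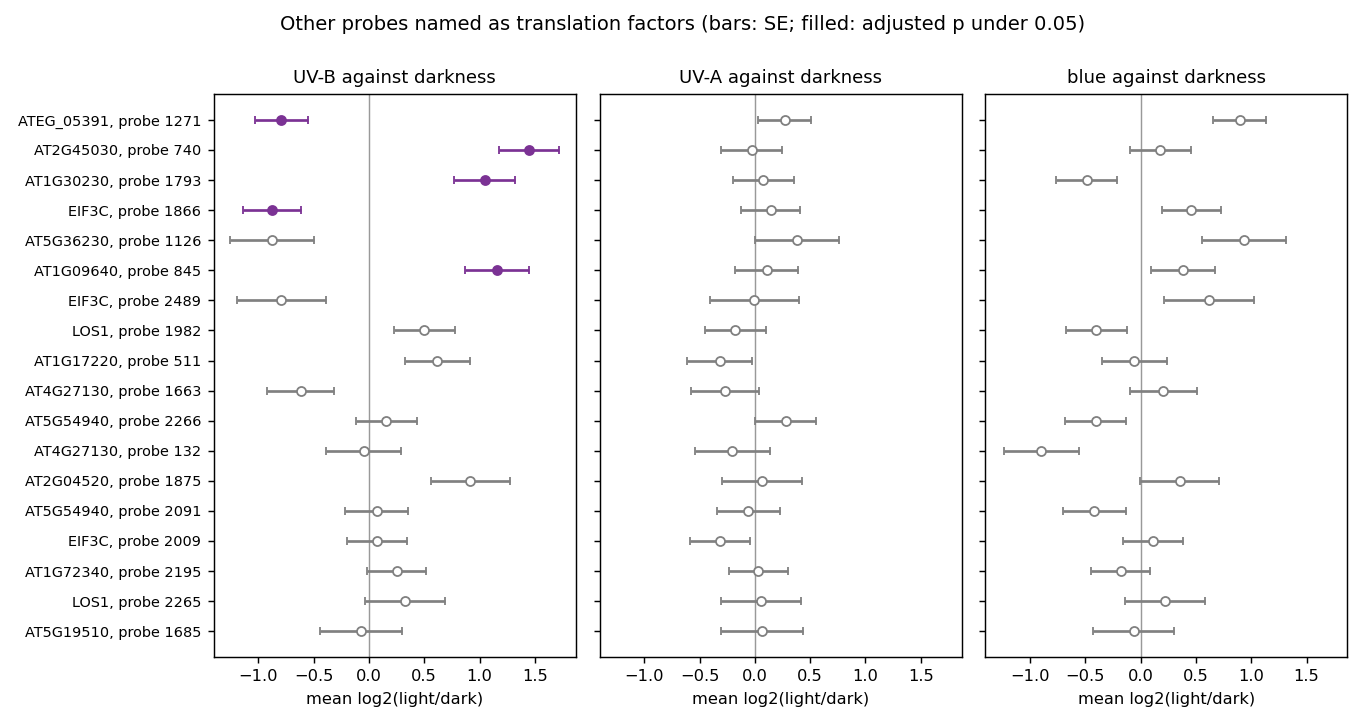
Mean log2(light/dark) with SE (n = 3 arrays) of the 18 other probes named as translation factors in UV-B, UV-A and blue light, ordered by the p of the joint test of the 3 lights. Filled symbols passed at an adjusted p under 0.05. In UV-B 3 probes passed above 0 and 2 below, and none passed in the other lights.

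Probes named as parts of the ribosome, on which these factors act, numbered 166. In UV-B 6 rose and 4 fell (6.02%, against 24.7% of all probes, 10.8% higher and 13.9% lower), with a median of 0.15 against 0.01 over all probes. In UV-A none rose and 5 fell (3.01%, against 3.19% of all, 1.12% higher and 2.07% lower), with a median of -0.39. In blue light none rose and 19 fell (11.4%, against 3.47% of all, 1.12% higher and 2.35% lower), with a median of -0.60. The 19 became 0 without UV-B replicate 1 or blue replicate 3, 1 to 4 without any 1 UV-A replicate and 2 without blue replicate 2. They became 0 with the blue light arrays alone or the first spot and 1 with plain subtraction or the authors' values. Of all probes, 0% were called in blue light without blue replicate 3 and with the first spot, and 0.519% to 1.04% under the rest of these. The 5 in UV-A became 0 without any 1 UV-A replicate or with the first spot. They became 2 to 9 without 1 of the other arrays (2 without UV-B replicate 1 and 9 without blue replicate 3). Of all probes, 0.917%, 0% and 0.0798% were called in UV-A without UV-A replicates 1, 2 and 3, and 1.24% with the first spot. Without 1 of the other arrays 1.95% to 5.31% of all were called. With the block 16 of the 166 fell in UV-A, where 11.1% of all probes were called (4.59% higher and 6.54% lower). In blue light 1 rose and 56 fell with the block, where 16.1% of all were called (6.7% higher and 9.41% lower). UV-B was higher than blue light on 28 of the 166 and lower on 4 (19.3%, against 18.3% of all, 8.06% higher and 10.3% lower). With the block it was higher on 47 and lower on 4 (28.8% of all, 13.2% higher and 15.6% lower). The 28 became 5 without UV-B replicate 3, 11 without UV-B replicate 1, 10 without blue replicate 3 and 13 without UV-A replicate 1. They became 16 without UV-A replicate 3 or blue replicate 2, and 9 with the compared arrays alone or the first spot. Of all probes, 2.95% to 6.1% were higher in UV-B than in blue light under these alternatives. In the authors' values 21 of the 166 rose and 6 fell in UV-B, where 30.4% of all were called (16.7% higher and 13.7% lower). The smallest p of the joint test belonged to AT4G02230 and AT2G36160, which fell by 2.13 ± 0.31 and 2.47 ± 0.318 (log2) in UV-B.

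The genes most like each member were taken by the correlation of log2(light/dark) over the same 9 arrays and with dye bias in common, as a description. Closest to AT1G07920 probe 1226 were the ubiquitin ligase AT5G63780 (r = 0.969), the ribosome constituent AT4G31985 (0.967) and AT1G62480 of unknown function (0.964). Closest to TIF3H1 probe 1319 were the cyclin CYC1BAT (0.934), the urate oxidase AT2G26230 (0.931) and the cyclin CYCA3;4 (0.918). Closest to EIF3K were the extensin ATEXT3 (0.906), the ribosome constituent AT3G62870 (0.896) and AT4G30650 of unknown function (0.892).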

How the data were processed

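Per the labels' protocols, mRNA purified on oligo(dT) cellulose was labelled with Cy3 or Cy5 and hybridized to 9 arrays. The authors deposited, for each array, foreground and background intensity values of 6272 spots on a linear scale, and a spot score of 0 or 1, called weight, with no stated meaning. Of these, 5299 spots of weight 1 with a clone number were used. No source used here names the scanner or its software. The authors' deposited log2 table (normalization not stated, column means 0, medians -0.165 to 0.047) had correlations of -0.963 to -0.854 with the light over dark ratios, so its sign was turned before use as an alternative, and the direction printed here opposes it. The 3 dark against dark arrays of the design text are not analysed here.

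Background was corrected with normexp (offset 50) and ratios by loess within arrays, in R 4.3.3 with limma 3.58.1. Duplicate spots were averaged, and a probe needed 1 channel at 1.5 times background on 3 arrays, which removed none of 2507. All 9 arrays entered a single limma model with 3 means, 1 for each light. Tests were two-sided, with Benjamini-Hochberg adjustment over all probes. Same-numbered arrays deviated together (r of 0.105 to 0.622 in each of 9 pairs, and each of 9 arrays was closest to its own number), so the number was also fitted as a block. Other alternatives were the background correction, the within-array normalization, the filter, the spot weights, the authors' values, the arrays in the model and each array left out. Single spots were tried after seeing the data. Against darkness that block removes replicate spread that belongs to the error of a mean. On simulated data for UV-B against darkness over 2507 probes, 90 of 100 changes of 2 (log2) and 33 of 100 of 1 were recovered, with 3 of 2307 unchanged probes called. The simulated noise was normal and independent between arrays, with no dye bias and no shared deviation of same-numbered arrays. These counts thus do not cover errors from dye bias or from shared deviation. Fewer probes were changed in the simulation than the 24.7% called in UV-B. The adjusted p depends on that share, so the counts recovered hold for the simulated setting only.

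The members and lists were chosen with earlier results of these data known. All member probes are named. Of the other translation factors and ribosome probes, taken by words in the annotation, the rule allowed the smallest p of the joint test (4 and 2 probes) and the brightest probe of a name. EIF3C probes 2489 and 2009 and the dimmer LOS1 probe fall outside it and were chosen after their values were seen. The comparisons with darkness share no array, but no label says whether dark extracts were shared between lights. The number of arrays limits the precision. Plots used matplotlib 3.10.9 under Python 3.11.15. Turnip coordinates and clone sequences are not used here.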

Additional observations from a re-analysis of the deposited data

Results flagged for a closer look

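The effect of light against darkness differed between lights on 4 member probes. UV-B exceeded blue light by 1.86 on AT1G07920 probe 1226, by 1.88 on probe 607, by 2.27 on probe 1473 and by 1.47 on TIF3H1 probe 1319 (log2, limma adjusted p = 0.0072, 0.0188, 0.0169 and 0.0354). It did so in 3 of 3 same-numbered pairs of arrays for each, as on 30.7% of all probes. UV-B exceeded UV-A by 1.77 on AT1G07920 probe 1226 (adjusted p = 0.0128), also in 3 of 3 pairs, as on 29.2% of all probes. The pairs are of the same arrays that gave these calls. Groups of 3 arrays are too small for a test of single outlying arrays.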

How the results depend on the processing

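AT1G07920 probe 1226 kept its UV-B calls against darkness and against blue light under every alternative run. The number of member probes called against darkness in UV-B was 3. It was 5 with the authors' values and replicate block (42.7% of all probes called) and 1 to 4 without 1 array (10.8% to 29.4%). It was 1 with the first spot of each probe (18.4%), which was chosen after seeing the data, as was the second spot. In UV-A the number was 1 (3.19% of all probes called), and 0 to 1 without 1 array (0% to 5.31%). It was 0 with plain subtraction (2.35%), median centring (3.19%), the UV-A arrays alone (3.83%) and either spot (1.24% and 2.67%). In blue light it was 0, and 1 with print-tip loess, 2 with the replicate block (16.1% of all called, against 3.47% without it), 1 with the authors' values and block (11.3%), and 0 to 1 without 1 array. For UV-B against blue light it was 4, and 7 with the authors' values and block (37.4% of all). Without 1 array it was 1 to 4 (8.7% to 18.3%). For UV-B against UV-A it was 1, and 3 with the authors' values with or without the block (24.9% and 10.4% of all). It was 2 with the block (15.1%), 2 with the compared arrays alone (8.22%) and 0 to 2 without 1 array (2.99% to 11.1%). In the joint test it was 3, and 6 with the authors' values and block (29.7% of all). It was 1 with either spot (6.54% and 8.46%) and 0 to 3 without 1 array (3.87% to 10.7%). For UV-A against blue light it was 0 throughout. The strict filter left out TIF3H1 probe 931. Of the single probes, the replicate block on the main values changed no member's call beyond AT1G07920 probes 585 and 607, given with their values. Smaller shifts of the counts are given by probe. Against darkness in UV-B, probe 607 also passed with plain subtraction, no background correction, the strict filter, the authors' values and the block. There 24.1% to 32.7% of all were called. With the second spot, probe 1473 was lost. For UV-B against blue light, probes 453 and 585 also passed with the authors' values (23.2% of all). TIF3H1 probe 1319 was lost there with median centring, the compared arrays alone and the first spot.

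Signs turned only on values that had not passed. TIF3H1 probe 931 in UV-A was -1.44 with plain subtraction (-0.83 against blue light), -0.13 with no background correction, -0.032 with median centring and -0.15 with print-tip loess, and its UV-B minus UV-A difference was -0.013 with spot weights ignored. TIF3H1 probe 1319 had a UV-B minus UV-A difference of 0.044 with subtraction, 0.026 with the authors' values, with or without the block, and 0.012 with the first spot, and its blue light mean was 0.036 in the authors' values, with or without the block. EIF3K in UV-B was -0.25 with print-tip loess and -0.037 with the first spot, and its UV-B minus blue difference was 0.058 with the second spot. AT1G07920 probe 585 in UV-B was -0.16 with print-tip loess and -0.0034 with the first spot. The cause was not tested.

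Without 1 array, values with a change of sign ranged as follows. EIF3K ran over -0.55 to 0.36 in UV-B, -0.81 to 0.11 for UV-B minus blue and -0.0032 to 0.25 for UV-A minus blue. TIF3H1 probe 1319 ran over -0.46 to 0.13 in blue light and -0.25 to 0.25 for UV-B minus UV-A, and probe 931 over -0.091 to 0.11 in UV-A. AT1G07920 probe 585 ran over -0.30 to 0.28 in UV-B, probe 453 over -0.067 to 0.29 in UV-A, and probe 1226 over -0.23 to 0.0068 in UV-A and -0.071 to 0.37 for UV-A minus blue. Probe 607 ran over -0.091 to 0.77 for UV-A minus blue. TIF3H1 probe 931 had both channels above background on 4 of 9 arrays. EIF3K had saturated exposed spots on replicate 3 of each light and on no other array. Whether low signal or saturation had a part in these ranges was not tested.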
